A study of Caenorhabditis elegans with 2 samples.

Results

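Splicing factor genes encode the proteins that remove introns from pre-mRNA, and the data describe where the tagged nuclear hormone receptor NHR-77 sat at their promoters in young Caenorhabditis elegans. The genes were taken by name from the Ensembl annotation (release 115, WBcel235, the build also called ce11) as all protein-coding genes named rsp, snr, prp, sfa, uaf, hrpa, hrpf or sftb, which gave 38 of 19973 genes on the 6 nuclear chromosomes. Whole L1 larvae of mixed sex, the stage just after hatching, were used for ChIP-seq against eGFP-nhr-77, in 1 group of 2 biological replicates. Both samples came from strain OP353, with the unc-119(tm4063) mutation on chromosome III and the insertion wgIs353 of tagged nhr-77. The labels name neither the promoter of the insertion nor its copy number, and the antibody label reads only nhr-77. No untagged group was analysed here, so no condition was compared. Cells of every tissue were mixed, so strong binding in few cells and weak binding in many cannot be told apart.

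The spliceosome is built from small nuclear ribonucleoproteins (snRNPs), most of them a small nuclear RNA (snRNA) held in a ring of Sm proteins. Prp proteins assemble, rearrange and dismantle the machine. SR proteins and hnRNPs bind exons and introns and steer which splice sites are used. Most C. elegans messages also receive a spliced leader by trans-splicing, and many genes lie in operons, where a downstream gene is transcribed from the promoter of the first gene in the run. The annotated 5' end of a gene can therefore lie away from the site where transcription starts. Nuclear hormone receptors such as NHR-77 are transcription factors with a zinc finger DNA binding domain, and nematodes have a greatly expanded family of them.

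NHR-77 peaks were found at the promoters of 20 of the 38 splicing factor genes (52.6%). Among all protein-coding genes the share was 8.6%, and among the 10896 genes that have a genetic name, as all members do, it was 11.2%. A gene was called bound when its promoter window, 1000 bp before and 250 bp after the annotated 5' end, held the summit of a reproducible peak. Reproducible peaks are the 2285 peaks that the authors kept by IDR, a measure of agreement between replicates. By family, 7 of 8 SR protein genes (rsp), 5 of 7 Sm protein genes (snr), 3 of 13 prp genes and 5 of the other 10 genes were bound. Genes are not replicates and neighbours share peaks, so these shares are given without a test. Read counts are not part of peak lists, and the sequencing depth behind each peak is unknown.

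**Figure D1:**
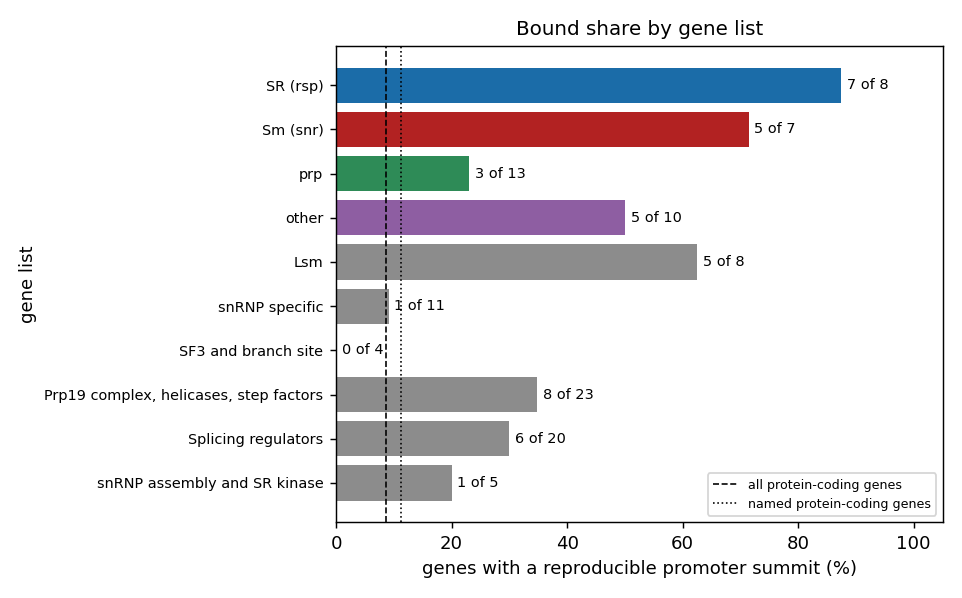
Percent of genes with a reproducible summit in the promoter (x axis), for the splicing factor families (coloured bars) and for other lists of splicing genes (grey bars), with the count beside each bar. The dashed line marks all protein-coding genes (8.6%) and the dotted line named genes (11.2%); the rsp bar is the longest, the snRNP-specific bar (1 of 11) ends between the lines, and SF3 and branch site genes are at 0 of 4.

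The reproducible set was kept for agreement between replicates, so a peak in both was nearly given: it was present for 20 of 20 bound genes, and at 1275 of 1278 promoter summits over all genes. With the same number of peaks taken from each replicate, the 2285 strongest, 18 of the 38 genes were bound in replicate 1 (8.57% of all genes) and 21 in replicate 2 (8.19% of all genes), and 17 were bound in both (6.55% of all genes). The replicate summits lay close to the reproducible summit, with a median offset of 14 bp in replicate 1 and 5 bp in replicate 2. The widest offsets were at sftb-2, 84 and 106 bp in replicates 1 and 2.

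Below, signal is the authors' own value for a peak, used only to rank peaks within one list, and rank 1 is the strongest peak of a list. The bound genes spread over most of the reproducible set. Their strongest promoter peaks had signals from 59.0 to 282, with a median of 119, against a median of 98.3 over all 1717 bound genes. Of the 20, 14 were in the stronger 1143 of the reproducible peaks (70.0%), as were 54.5% of all bound genes.

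The bases around 5 summits are shown because they carry the results described below: the strongest peak (snr-4), 2 peaks that each lie between 2 diverging splicing factor genes (rsp-1 and rsp-5), and the peaks of prp-8 and prp-40, whose replicate summits lay closest to the reproducible one among the bound prp genes. Each window is 201 bases of the WBcel235 genome (RefSeq) with the summit at its centre, written 5' to 3' on the strand of the named gene, and no window overlaps a protein-coding gene. The windows are chrV:11979993-11980193 (minus strand), chrII:11453123-11453323, chrII:6489892-6490092, chrIII:8163940-8164140 and chrIII:9521800-9522000 (plus strand). Capitals mark matches on either strand to 1 of 5 short strings: the nuclear receptor core site AGGTCA, the string CTGCGTC, the TATA-box string TATAAA, the repeat string GAGAGA, and the acceptor-like string TTTCAG.
snr-4: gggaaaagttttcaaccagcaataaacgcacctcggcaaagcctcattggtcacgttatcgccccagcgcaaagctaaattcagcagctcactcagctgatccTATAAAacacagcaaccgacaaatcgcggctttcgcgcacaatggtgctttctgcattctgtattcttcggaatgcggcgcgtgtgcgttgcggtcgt
rsp-1: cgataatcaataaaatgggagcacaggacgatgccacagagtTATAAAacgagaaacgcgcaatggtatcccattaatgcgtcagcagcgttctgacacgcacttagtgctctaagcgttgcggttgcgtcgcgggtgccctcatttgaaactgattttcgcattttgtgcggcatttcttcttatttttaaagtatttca
rsp-5: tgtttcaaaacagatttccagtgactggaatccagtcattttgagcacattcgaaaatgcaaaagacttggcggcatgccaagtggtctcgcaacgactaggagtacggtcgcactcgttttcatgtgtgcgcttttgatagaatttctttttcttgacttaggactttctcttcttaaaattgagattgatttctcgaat
prp-8: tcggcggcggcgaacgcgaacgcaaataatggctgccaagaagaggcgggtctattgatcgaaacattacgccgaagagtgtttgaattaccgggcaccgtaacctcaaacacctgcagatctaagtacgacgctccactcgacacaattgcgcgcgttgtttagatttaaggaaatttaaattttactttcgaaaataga
prp-40: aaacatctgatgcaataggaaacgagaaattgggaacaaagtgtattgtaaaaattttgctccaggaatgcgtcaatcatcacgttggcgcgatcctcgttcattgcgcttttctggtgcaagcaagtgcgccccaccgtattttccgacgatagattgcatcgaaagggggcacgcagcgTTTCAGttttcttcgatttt
The window at snr-4 holds TATAAA at bases 104 to 109, and that at rsp-1 holds it at bases 43 to 48. TTTCAG stands at bases 182 to 187 of the prp-40 window, toward the gene. The rsp-5 and prp-8 windows hold none of the strings.

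Sm proteins form the ring around the snRNA, and their genes held the strongest peak of the whole set of members. The peak at chrV:11979903-11980282 had a summit -370 bp from the 5' end of snr-4 (WBGene00004917), which encodes SmD2 (negative distances lie upstream). Its signal was 282, rank 102 of 2285, with 159 (rank 97 of 21272) in replicate 1 and 117 (rank 123 of 24201) in replicate 2. It was thus near the top of both replicate lists, and snr-4 was the only member with 2 reproducible summits. The second summit, at -585 bp, had a signal of 104, with 58.4 in replicate 1 and 67.4 in replicate 2.

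Both snr-4 summits flanked a gene annotated as an snRNA. The gene WBGene00014291 (C52E4.8 in RefSeq, 144 bp, chrV:11980118-11980261, plus strand) points away from snr-4, and the stronger summit lay 25 bp upstream of its start and the weaker one 190 bp downstream of it. The stronger summit also fell inside a short ncRNA gene, C52E4.14. Among the 19 distinct summits at splicing factor promoters, these 2 lay within 200 bp of an snRNA gene start, against 15 of 1278 summits at all promoters (1.17%). None of the 19 lay that close to a snoRNA or tRNA gene start. Peaks of snr-4 and of the snRNA gene cannot be told apart by position.

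The other bound Sm genes had weaker peaks. The snr-3 gene (SmD1) shared its summit, at -231 bp, with rsp-5 and is described with it. For snr-2 (SmB) the peak chrI:13338857-13339236 lay at -350 bp with a signal of 112 (rank 836), and 71.9 and 37.6 in replicates 1 and 2. The snr-2 summit was closer to the diverging gene W08E3.4 (-116 bp) than to snr-2. The peak of snr-6 (SmE), at chrIII:12429689-12430068 and -250 bp, had a signal of 106 (rank 897). Its ranks in the replicates were nearly equal, 891 and 903. The snr-6 summit was nearest to snr-6 but also lay in the window of the diverging gene Y49E10.16 (-630 bp). The weakest was snr-1 (SmD3), with the peak chrIV:17087473-17087852 at -386 bp and a signal of 64.9 (rank 2002). It ranked 1527 in replicate 1 and 3863 in replicate 2, so it was outside the 2285 strongest peaks of replicate 2. The snr-1 summit was closer to the diverging gene snx-13 (-225 bp) than to snr-1. The genes of the last 2 Sm proteins, snr-5 (SmF) and snr-7 (SmG), were not bound, and their weak peaks are given below.

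SR proteins carry an arginine and serine rich domain and help to define exons. All of their genes but rsp-4 had a promoter peak, and the signals were of similar size, from 88.9 to 150. The highest was at rsp-3 (WBGene00004700), the homologue of human SRSF1. Its peak at chrIII:12688038-12688417 lay at -306 bp, with a signal of 150 (rank 462), and ranked 392 in replicate 1 and 732 in replicate 2. The rsp-3 summit was closer to the diverging gene spin-4 (-90 bp), a spinster-like transporter gene, than to rsp-3.

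A single peak stood between rsp-1 and rsp-2, 2 SR genes that diverge from a gap of 406 bp. The peak chrII:11453033-11453412 had its summit at -139 bp from rsp-1 and -268 bp from rsp-2, with a signal of 144 (rank 499). Its signal was 88.3 (rank 421) in replicate 1 and 55.9 (rank 681) in replicate 2. In replicate 2 the summit was -179 bp from rsp-1 and -228 bp from rsp-2, so it was nearer to rsp-1 there too.

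An SR gene and an Sm gene shared another peak. The genes rsp-5 and snr-3 diverge from a gap of 403 bp, and the peak chrII:6489802-6490181 had its summit at -173 bp from rsp-5 and -231 bp from snr-3. Its signal was 119 (rank 737), with 60.4 (rank 901) in replicate 1 and 56.4 (rank 666) in replicate 2. Both replicates placed the summit within 6 bp of the reproducible one, between both genes and nearer to rsp-5.

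The remaining SR genes had peaks with other surroundings. At rsp-6, the homologue of human SRSF3, the peak chrIV:7791198-7791577 lay at -159 bp with a signal of 143 (rank 508), and 75 and 65.5 in replicates 1 and 2. This peak lay in no other protein-coding promoter. At rsp-7 the peak lay at -318 bp with a signal of 88.9 (rank 1222), and ranks of 879 and 1626 in replicates 1 and 2. Its partner was snu-13 at -262 bp, the homologue of a yeast protein of the U4 snRNP and of box C/D snoRNPs. This summit too thus lay between 2 genes of RNA processing. It was closer still to the start of a short ncRNA gene, M28.13 (-9 bp). In replicate 1 the summit was -275 bp from rsp-7, on the rsp-7 side of the midpoint of the 579 bp gap, and in replicate 2 it was -327 bp away. The rsp-8 gene, a homologue of the Drosophila splicing regulator transformer-2, had the most distant SR summit, at -618 bp (signal 89.6, rank 1204), with ranks of 1068 and 1812.

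**Figure D2:**
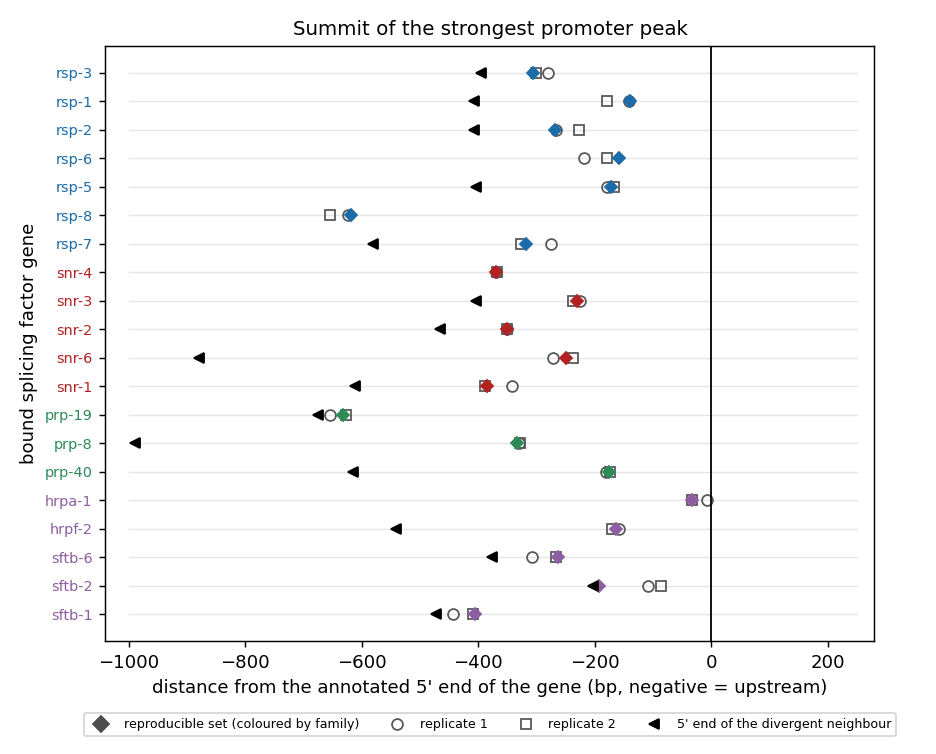
Distance of the strongest promoter summit from the annotated 5' end (x axis, bp) for the 20 bound genes, in the reproducible set (diamonds), replicate 1 (circles) and replicate 2 (squares), with the 5' end of a divergent neighbour within 1000 bp (triangles). All 20 reproducible summits lie upstream, from -34 bp at hrpa-1 to -632 bp at prp-19, and most lie between 2 diverging starts.

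Only 3 prp genes were bound, and all 3 peaks were strong. The gene prp-19, whose product is the ubiquitin ligase at the core of a complex that activates the spliceosome, had the peak chrIII:5172610-5172756 with a signal of 198 (rank 238). It ranked 229 and 273 in replicates 1 and 2. Its summit lay at -632 bp from prp-19 and only -43 bp from K10D2.5, and emb-1 also had this summit in its window, at -762 bp. The start nearest to the peak was thus that of K10D2.5.

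The other 2 prp peaks were nearest to the prp genes themselves. For prp-8, the large protein at the catalytic centre of the spliceosome, the peak chrIII:8163850-8164229 lay at -333 bp with a signal of 169 (rank 342). Replicate 1 gave 89.5 (rank 411) and replicate 2 gave 72.9 (rank 380). For prp-40, a U1 snRNP-associated protein in yeast, the peak chrIII:9521710-9522089 lay at -175 bp with a signal of 156 (rank 424), and ranks of 374 and 558. The replicate summits lay within 6 bp of the reproducible one at both genes. Both also lay in the window of a diverging neighbour, bath-42 (-657 bp) and clu-1 (-440 bp).

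The hnRNP and SF3b types gave 5 further bound genes, mostly with weaker peaks. The gene hrpa-1, for a homologue of hnRNP A1, had the summit closest to its start, at -34 bp in chrIV:3338711-3339090, with a signal of 130 (rank 617). It was stronger in replicate 2 (78.1, rank 326) than in replicate 1 (53.4, rank 1114). The reverse held for hrpf-2, of the hnRNP F and H family, with a summit at -164 bp and a signal of 102 (66.0, rank 771, in replicate 1 and 35.1, rank 1531, in replicate 2). The hrpf-2 summit also lay in the window of the diverging gene bli-6 (-378 bp). Across the 20 bound genes, 12 ranked higher in replicate 1 and 8 in replicate 2.

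SF3b belongs to the U2 snRNP and recognises the branch site. All 3 sftb genes had a peak in the weaker part of the reproducible set, which ends at a signal of 58.7, and sftb-1 was closest to that limit. The signals were 71.3 at sftb-6 (-263 bp, rank 1730), 66.7 at sftb-2 (-193 bp, rank 1909) and 59.0 at sftb-1 (-405 bp, rank 2258). In replicate 1, sftb-6 ranked 2658 and sftb-1 ranked 3724, outside its 2285 strongest peaks, while in replicate 2 all 3 were inside (ranks 1040, 2027 and 1787 for sftb-6, sftb-2 and sftb-1). Each reproducible summit lay nearer to a diverging neighbour, which was R10E4.1 (-68 bp) for sftb-1 and W03F9.2 (-10 bp) for sftb-2. At sftb-2 this changed with the replicate: in the 202 bp gap to W03F9.2 the summit stood at -109 bp in replicate 1 and at -87 bp in replicate 2, nearer to sftb-2 there. For sftb-6 the neighbour was luc-7L3 (-114 bp), related to the yeast U1 snRNP protein Luc7. This makes sftb-6 and luc-7L3 a further pair of splicing genes with a peak between them. The same summit also lay in the window of C50D2.10 (-997 bp).

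**Figure D3:**
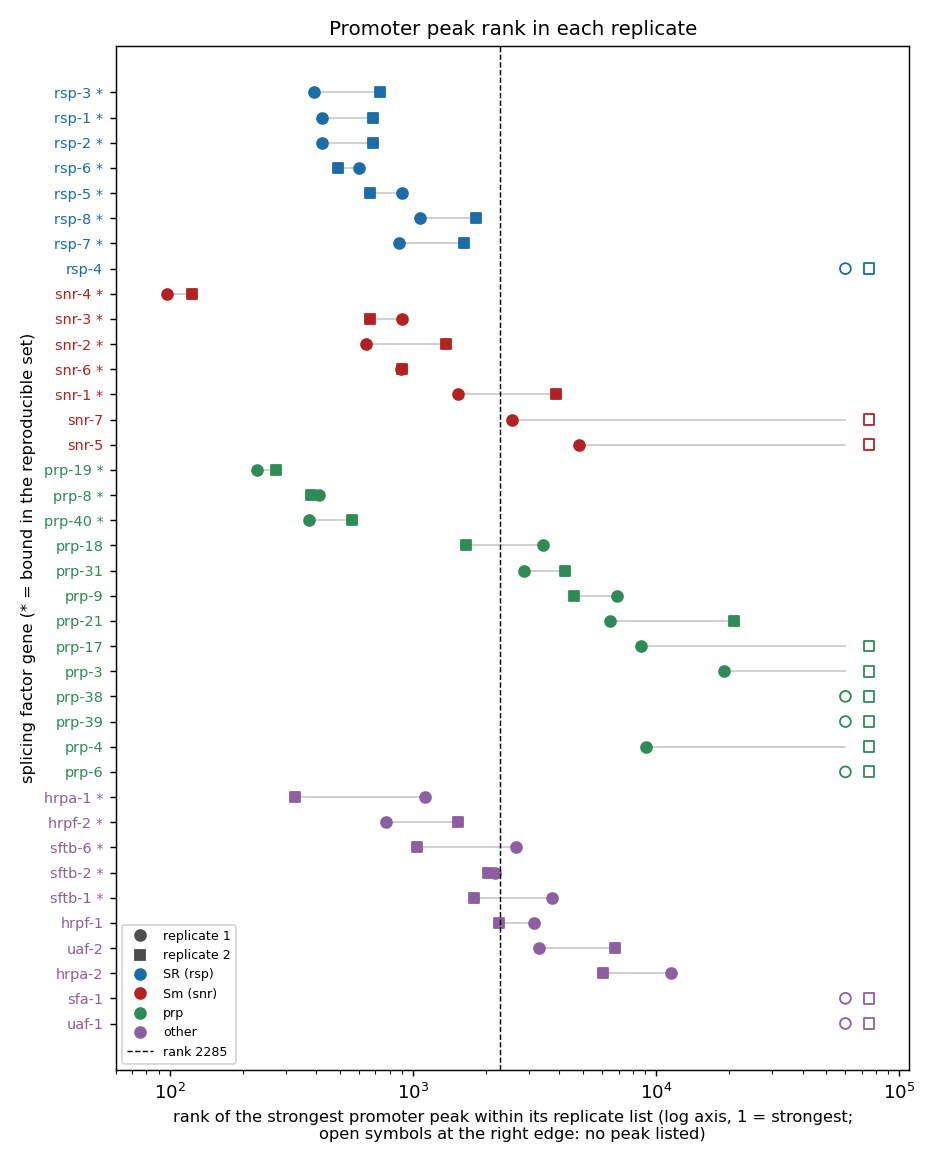
Rank of the strongest promoter peak of each of the 38 genes within the list of replicate 1 (circles) and replicate 2 (squares), on a log axis where 1 is the strongest peak; open symbols at the right edge mark genes with no listed peak. The bound SR genes lie between rank 392 and rank 1812, snr-4 is leftmost, and 6 genes have open symbols for both replicates.

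The 18 unbound genes were of several kinds. In the relaxed pooled list, which includes background, 7 of them had a weak promoter peak, so that 27 of 38 genes had a pooled summit against 26.5% of all genes. A summit in both relaxed replicate lists was also present at 27 of 38 (22.1% of all genes). No promoter summit in any of the 4 lists was found for 6 genes, prp-6, prp-38, prp-39, rsp-4, sfa-1 and uaf-1 (50.7% of all genes).

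Just below the reproducible set stood prp-18, a factor of the second catalytic step in yeast, with a pooled signal of 56.2 (rank 2418) at -126 bp. It ranked 1658 in replicate 2 and was thus among its 2285 strongest peaks, but 3414 in replicate 1. Next came prp-31, a U4/U6 snRNP protein in yeast and human, with 52.2 (rank 2694, at -132 bp), and hrpf-1 with 49.5 (rank 2898, at -223 bp). Of these, hrpf-1 ranked 2261 in replicate 2 (-227 bp) and 3139 in replicate 1, where its strongest promoter peak was a different one, at -713 bp. The small subunit of U2AF, encoded by uaf-2, had 46.2 at -2 bp. The Sm gene snr-7 had 39.8 at -380 bp, with a peak in replicate 1 (rank 2556) and none listed in replicate 2. The U2 snRNP genes prp-9 and prp-21 had 39.2 and 27.

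A further 5 unbound genes had a peak in a relaxed replicate list but none in the pooled list. The other Sm gene without a call, snr-5, had a signal of 20.8 (rank 4812) in replicate 1 and nothing in replicate 2. The tri-snRNP genes prp-3 and prp-4 and the step factor gene prp-17 likewise had a peak in replicate 1 alone, at ranks 19031, 9107 and 8668. At hrpa-2 both replicates listed a peak (ranks 11497 and 6037), at -432 and -949 bp. These ranks lie deep in lists that were made to include background.

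A diverging neighbour was common among the members, bound or not. The nearest upstream protein-coding gene pointed away on the other strand at 28 of the 38 members, against 8420 of all 19973 genes. No limit was set on its distance, which was 2602 bp at hrpa-1 and 5152 bp at prp-6. Of the 28 members, 17 were bound (13.2% of 8420 genes with this arrangement). The 17 were among 20 bound members, and over all genes 1115 of the 1717 bound genes had this arrangement. Of the 28 members with a diverging neighbour, the families gave 5 of 5 rsp, 4 of 6 snr, 3 of 10 prp and 5 of 7 other genes as bound. An upstream neighbour on the same strand within 500 bp, a spacing common inside operons, was present at 6 members, and 1 of these was bound, rsp-6 (5.83% of 3534 such genes). Operons themselves were not annotated in the files, so this is a spacing rule only.

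For 3 of the 5 unbound genes in such close runs, a reproducible summit lay in the promoter of the first gene (17.7% of 3328 unbound genes in such runs). With 5 genes this is a description only. The gene prp-38 begins 106 bp after plrg-1, which encodes a homologue of a protein of the yeast and human Prp19 complex, and a peak with a signal of 121 lay at -201 bp from plrg-1. For prp-39, which follows hmgs-1 (HMG-CoA synthase) after 90 bp, a peak with a signal of 213 lay at -146 bp from hmgs-1. For prp-3, 344 bp after smrd-1, a peak with a signal of 75.1 lay at -247 bp from smrd-1. The run of uaf-2, cyn-13 and sfa-1, where sfa-1 encodes the branch point binding protein, had no reproducible summit at uaf-2, and the run before hrpa-2 had none at its first gene, H28G03.2. With the first promoters counted, a choice made after the data were seen, 23 of 38 genes would be bound (11.5% of all genes under the same rule).

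The remaining genes with no promoter summit in any list differed in how far the nearest reproducible summit lay. The start of rsp-4, the homologue of human SRSF2, lies inside ndx-6, and a reproducible summit with a signal of 95.1 stood at -1315 bp. The nearest reproducible summit to uaf-1, the large subunit of U2AF, was at -4225 bp (signal 174). In the relaxed pooled list, a weak summit (signal 24.6) lay at 255 bp from the uaf-1 start, just outside the 250 bp limit of the window. For prp-6, a tri-snRNP protein, the nearest was at 56867 bp.

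Shared promoters were common. Of the 20 bound genes, 16 shared a reproducible summit with another protein-coding gene (53.1% of all 1717 bound genes did), and 10 were the nearest protein-coding start to their own strongest summit. Over all genes, 1241 of the 1717 bound genes were the nearest such start to a summit in their window. With each peak given to the nearest protein-coding start only, 10 of 38 genes remained bound (6.21% of all genes): hrpa-1, hrpf-2, prp-8, prp-40, rsp-1, rsp-5, rsp-6, rsp-8, snr-4 and snr-6. Starts of non-coding genes were left out of this rule. The stronger snr-4 summit, at -370 bp, lay nearer to the start of the snRNA gene (-25 bp). The pairs rsp-1 with rsp-2, rsp-5 with snr-3, rsp-7 with snu-13 and sftb-6 with luc-7L3 are each splicing genes on both sides of a single summit. The last 2 partners were recognised after the values were seen, since their names are outside the naming rule.

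All 20 summits were intergenic with respect to protein-coding genes, and 18 (90.0%) lay within 500 bp upstream of the gene, against 76.4% of all bound genes. The median distance was -265.5 bp for the members and -242 bp for all bound genes. By family the medians were -350 bp for snr (n = 5), -268 bp for rsp (n = 7), -333 bp for prp (n = 3) and -193 bp for the other genes (n = 5). The ranges overlapped widely, from -386 to -231 bp for snr and from -618 to -139 bp for rsp, so the families were not separated by distance.

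The signals of the replicates ran together across the sites of the members. Over the 19 distinct summits, the overlapping peaks of replicates 1 and 2 had a Spearman rho of 0.626, and over 1275 summits at all promoters it was 0.711. The summits were kept for agreement between the replicates, which favours a positive rho, so these values are no separate evidence of agreement. Sites share the same 2 libraries, so the rho is a description and no p-value is given. The signal was higher in replicate 1 at 15 of 19 member summits (78.9%) and at 77.9% of all promoter summits. The scales of the lists may differ, so this says nothing on binding.

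**Figure D4:**
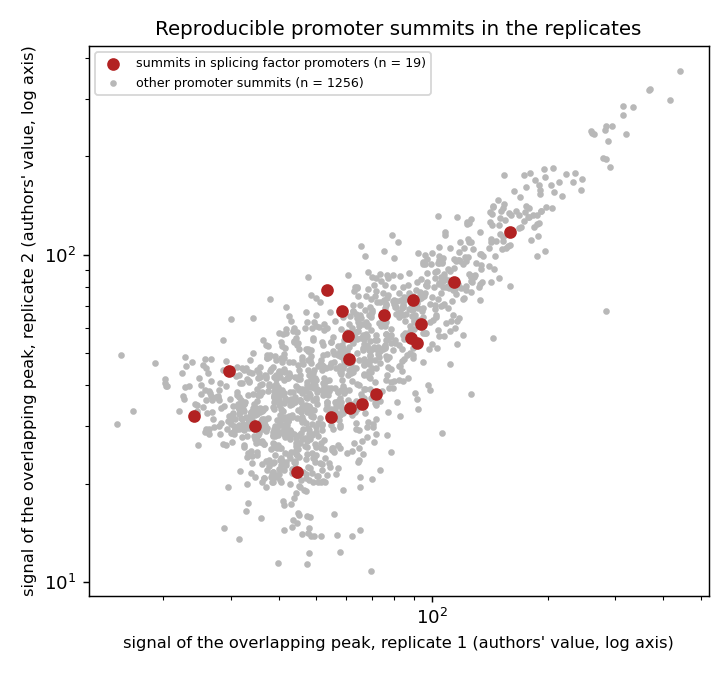
Signal of the peak that overlaps each reproducible promoter summit in replicate 1 (x axis) and replicate 2 (y axis), both on log axes in the authors' units, for 19 summits in splicing factor promoters (red) and 1256 other promoter summits (grey). The red points lie within the grey cloud, from 24.1 and 32.3 at sftb-1 to 159 and 117 at snr-4.

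By sequence, the 19 member windows did not carry the nuclear receptor core site. AGGTCA, on either strand, was in 0 of 19 windows, against 4.85% of the 1278 windows at all promoter summits. TTTCAG was in 8 of 19 (42.1%, against 20.0% of all promoter windows), TATAAA in 5 (26.3%, against 14.1%), CTGCGTC in 3 (15.8%, against 15.7%) and GAGAGA in 3 (15.8%, against 36.5%). With 19 windows, differences of a few windows cannot be read. The median GC content was 41.3% in the member windows and 41.8% in all promoter windows. In promoters cut from 250 bp before to 50 bp after the annotated start, that site was absent from all 20 bound and all 18 unbound members, and it was present in 8.29% of all promoters. A missing match says only that these letters are not in these windows.

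Other genes of the splicing machinery were bound at 21 of 71 (29.6%), against 8.6% of all genes and 11.2% of named genes. Of 8 genes for Lsm proteins, relatives of the Sm proteins that bind U6 snRNA or decaying mRNA, 5 were bound, led by lsm-7 (signal 106, at -250 bp), lsm-1 (102, -354 bp) and gut-2 (94.6, -85 bp). All 3 lay in the window of another gene, and the start nearest to the summit was dnc-1 for lsm-7 and the ribosomal protein gene rps-9 for lsm-1. Of the 11 genes in the snRNP-specific list, 1 was bound, snrp-40.1 (signal 133, at 3 bp). Of 4 SF3 and branch site genes none was (0 of 4). With so few genes, these 2 counts are near the shares of all and named genes.

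Of 23 genes for the Prp19 complex, helicases and step factors, 8 were bound. The highest was mog-4, an RNA helicase of the sperm to oocyte switch, whose peak at -290 bp had a signal of 281 (rank 103), next below that of snr-4, and ranked 111 and 72 in the replicates. It was followed by syf-2 (195, at -397 bp, nearer to K04G7.1) and smu-1 (150, at -4 bp). Of 20 splicing regulators, many of them tissue-specific, 6 were bound, with swp-1 (202, at -882 bp), hrpk-1 (189, at 209 bp) and hrpu-1 (128, at 54 bp) highest. The swp-1 summit was nearest to the ribosomal protein gene rpl-23. Among 5 genes for snRNP assembly and the SR kinase, spk-1, which phosphorylates SR proteins, was bound (138, at -278 bp), but it ranked 277 in replicate 1 and 2219 in replicate 2.

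By chromosome, the members were bound at 1 of 6 genes on I (12.1% of all genes there), 6 of 9 on II (8.47%), 7 of 10 on III (12.1%), 4 of 7 on IV (8.29%), 2 of 5 on V (5.77%) and 0 of 1 on X (7.29%). On chromosome I the unbound members were snr-7, hrpf-1 and 3 prp genes: prp-4, prp-17 and prp-31.

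Some calls held under every rule tried. The 9 genes hrpa-1, hrpf-2, prp-8, prp-40, rsp-1, rsp-5, rsp-6, snr-4 and snr-6 were bound under all 8 other rules tried apart from the whole pooled list: narrow and wide windows, nearest protein-coding starts, the stronger 1143 peaks, overlap in place of summits, any transcript start, and each replicate alone. The share of all genes bound under all 8 was not counted, and most of the rules reuse the same peaks, so the 9 are a description only. Taken singly, the 8 rules called from 4.69% (stronger 1143 peaks) to 11.4% (wide window) of all genes. Under these 8 rules 3 unbound genes were gained, prp-18 and hrpf-1 from replicate 2 alone (8.19% of all genes) and rsp-4 with the wide window (11.4%).

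**Figure D5:**
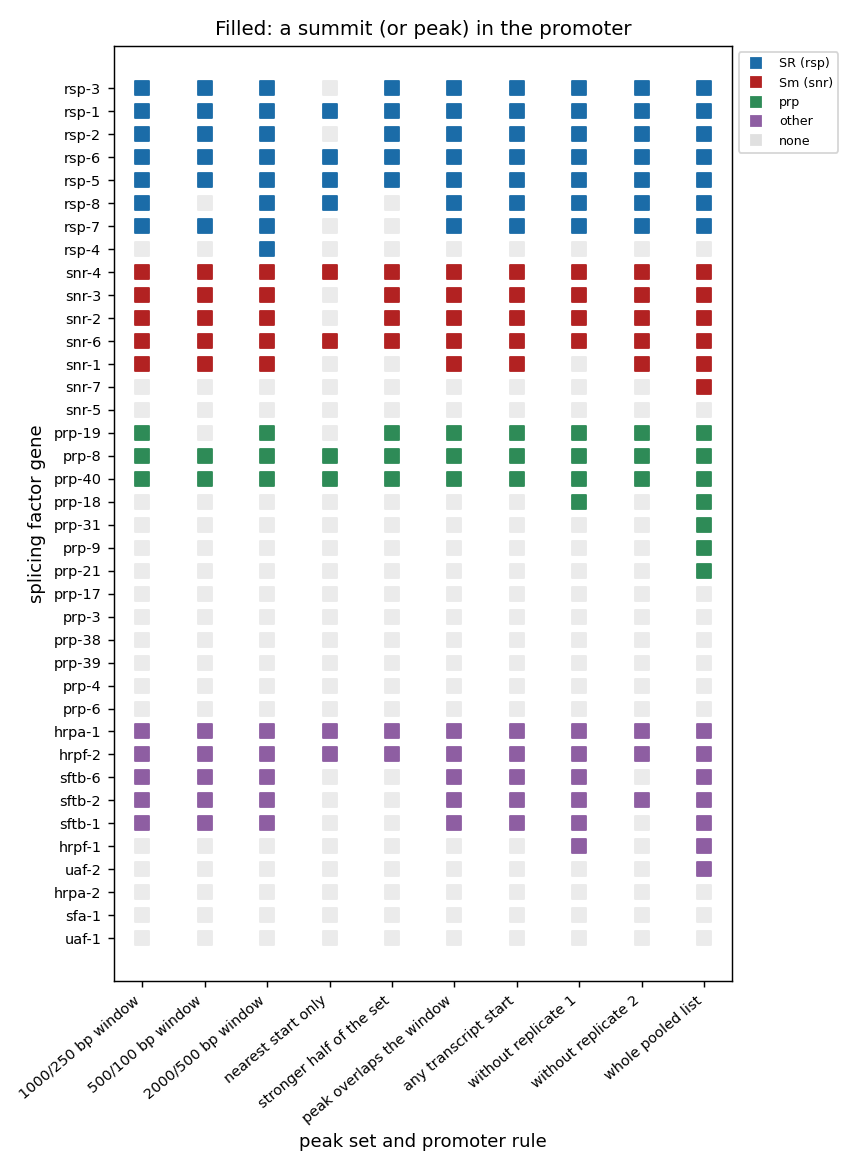
Calls for the 38 genes (rows, coloured by family) under the main promoter rule and 9 others (columns); a filled square is a gene with a summit, or an overlapping peak, in its promoter. The column for nearest protein-coding starts is the emptiest, with 10 filled squares against 20 under the main rule, and the whole pooled list is the fullest with 27.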

How the data were processed

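Peak lists on ce11 from eGFP-nhr-77 ChIP-seq of L1 larvae were used: 1 per replicate (21272 and 24201 peaks), 1 pooled (13500) and the reproducible set (2285). Per the deposited notes, the authors derived each relaxed list, which includes background, from the alignments and 1 further file that the notes do not describe; the labels name a possible control. These lists were input for IDR, and the reproducible set was derived from all 3. The signal column holds the authors' deposited peak signal, scaled by their caller; here it serves for ranks inside one list. Caller, aligner and IDR threshold: not given in the sources used here. The ce10 lists and the possible control were not used here.

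Gene starts came from Ensembl release 115. A summit was the start plus the offset in the list. Promoter calls, ranks and motif counts were made in Python 3.11.15 with pandas 2.3.3. The promoter calls and nearest starts were checked on planted summits, while ranks and motif counts had no such check. Both replicates are biological samples of 1 group per the labels, so no test between groups was possible. The members, gene lists, motifs and rules were chosen with earlier results of these data known. Named genes are all members, their peak partners and the 3 strongest bound genes of each other list; 13 of 84 list names were not in the annotation. Same-strand spacing and first promoters of runs were added after the data were seen. The bases of 1 further summit window are not reported here.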

Additional observations from a re-analysis of the deposited data

How the results depend on the processing

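With each peak given only to the nearest protein-coding start (6.21% of all genes), the count of bound splicing factor genes was 10 in place of 20. They included 2 snr, 4 rsp and 2 of the other genes. Under that rule the median summit distance moved from -265.5 to -174 bp, and the other splicing lists had 12 bound genes in place of 21. The stronger 1143 reproducible peaks gave 2 of the other genes in place of 5 and 13 genes of the other lists, while the share of all genes fell from 8.6% to 4.69%. The whole pooled list gave 7 prp genes in place of 3, while the share of all genes rose from 8.6% to 26.5%. With 1 replicate left out, all members ranged from 18 to 21, snr from 4 to 5, rsp stayed at 7, prp ranged from 3 to 4, the other genes from 3 (without replicate 2) to 6, the other splicing lists from 20 to 23, and the median distance from -269 to -237 bp. The remaining counts were within 1.5 times the main one. The causes were not tested. Depth is unknown, and a gene below the reproducible set may be bound at a level the lists do not hold. No paired analysis was possible because there was 1 group.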
